A study of Mus musculus with 12 samples.

Results

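Expression of Lgi3, Astn1, Hs3st4 and Slc7a10 was examined in mouse spermatogonia of wild-type (WT) mice and of mice labelled as controls (PRC1ctrl) or as lacking Polycomb repressive complex 1 (PRC1cKO). These 4 genes, of 55385 in the table, were chosen from measured values. Each had under 1 TPM (the RSEM unit of transcript abundance, a share of the library corrected for gene length) in 6 libraries: 2 of WT undifferentiated spermatogonia (A_undiff), 2 of WT differentiating spermatogonia (A_diff) and 2 of A_undiff labelled PRC1ctrl after treatment with Win18446. Each also had at least 2 TPM in both A_undiff libraries labelled PRC1cKO after the same treatment. Names starting with Gm or Mir and a digit, names ending in Rik, and numbered genes of the Hox clusters and of 9 other families of developmental transcription factors were dropped. By the TPM thresholds alone 10 genes qualified, and the 6 dropped ones all had Gm names.

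The study compared 6 groups of 2 bulk RNA-seq libraries each, from sorted testis cells. WT libraries came from untreated adult C57BL/6 males, with A_undiff gated as E-Cadherin+ CD9high KIT- and A_diff as E-Cadherin+ CD9medium KIT+. PRC1cKO mice were Ring1-/-; Rnf2 F/-; Ddx4-Cre, and their PRC1ctrl counterparts were Ring1-/-; Rnf2 F/+; Ddx4-Cre, so the controls also lacked Ring1, carried the Cre and had 1 floxed Rnf2 allele. Ddx4-Cre acts in germ cells, and these mice were of mixed C57BL/6 and FVB/NJ background. A_undiff of both genotypes were taken at 2 months of age (2 mo) without treatment, or after about 30 daily injections of Win18446 (50 µl at 40 µg per µl) begun at 1 month of age. Win18446 inhibits ALDH1A2, which makes retinoic acid, and holds spermatogonia in the undifferentiated state. The 2 mo libraries were made by a low-input Smart-Seq2 procedure and the other 8 with a stranded kit on more cells, each library from cells pooled over mice, so that levels of the 2 kits are set side by side but not compared.

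Polycomb repressive complex 1 (PRC1) places ubiquitin on histone H2A, with RING1 or RNF2 as its catalytic subunit. It is known for keeping genes of other lineages off, and in mammals it is found above all at promoters rich in CpG. In male germ cells it is known for silencing somatic developmental genes. LGI3, a secreted leucine-rich repeat protein made mainly by neurons, belongs to a family that binds receptors of the ADAM22 and ADAM23 type. ASTN1 is a neuronal membrane protein used by young neurons as they migrate along glial fibres. HS3ST4 is a brain-enriched enzyme that adds sulfate to heparan sulfate chains, and SLC7A10 (Asc-1) is a transporter of small neutral amino acids, D-serine among them, in brain and fat.

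Of the 4 genes, Astn1, Hs3st4 and Slc7a10 had an entry among the promoter sequences of RefSeq on GRCm38.p6, the build of the deposited coordinates. They are printed because CpG content sets the known Polycomb targets apart, and because these genes, alike in expression, differed in it. Each line holds the 250 bases before the start site on the plus strand, 5′ to 3′, with every CpG in capitals. Astn1 lies at chr1:158362054-158362303, Hs3st4 at chr7:123982578-123982827 and Slc7a10 at chr7:35186135-35186384.
Astn1: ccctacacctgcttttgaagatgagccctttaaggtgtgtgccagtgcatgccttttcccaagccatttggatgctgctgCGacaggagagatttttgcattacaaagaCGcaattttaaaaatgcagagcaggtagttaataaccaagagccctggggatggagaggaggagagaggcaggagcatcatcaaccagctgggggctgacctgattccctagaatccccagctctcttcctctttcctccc
Hs3st4: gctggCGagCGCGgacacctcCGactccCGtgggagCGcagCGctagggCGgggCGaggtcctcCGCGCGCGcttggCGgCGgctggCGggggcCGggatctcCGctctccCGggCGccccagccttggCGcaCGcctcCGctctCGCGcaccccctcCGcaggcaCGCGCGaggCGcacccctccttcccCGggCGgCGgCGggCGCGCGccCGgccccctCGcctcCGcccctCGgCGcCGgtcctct
Slc7a10: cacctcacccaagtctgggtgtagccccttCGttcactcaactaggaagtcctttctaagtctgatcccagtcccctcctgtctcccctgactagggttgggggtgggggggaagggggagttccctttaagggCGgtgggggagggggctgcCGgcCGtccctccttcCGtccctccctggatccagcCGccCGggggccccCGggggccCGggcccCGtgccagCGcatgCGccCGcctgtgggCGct

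The Hs3st4 sequence held 43 CpG, and 99.1% of 15685 protein-coding genes with an entry held fewer. Slc7a10 held 14, with 57.7% of genes holding fewer, and Astn1 held 2, with 14.3% holding fewer. The ratio of observed to expected CpG was 1.04, 0.463 and 0.126 in that order, and the G and C share 82.0%, 69.6% and 50.4%. The 3 genes thus covered nearly the whole range of CpG content. None of the 3 held TATAAA on either strand, a sequence found in 12% of the 15685. An entry was found for 79.1% of the protein-coding genes with kept names, too few for a comparison of promoters between sets of genes, which was void.

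**Figure D1:**
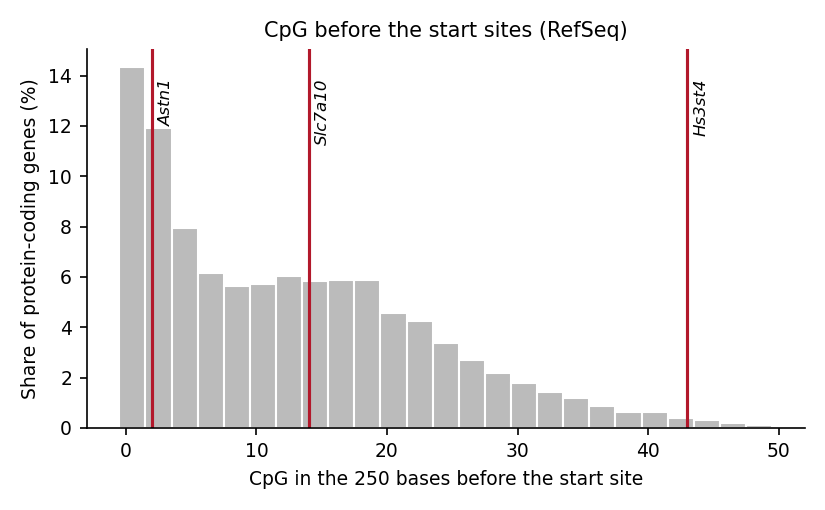
Number of CpG in the 250 bases before the start site (x axis) and the share of 15685 protein-coding genes with that number (y axis, %, bins of 2). Red lines mark Astn1 (2), Slc7a10 (14) and Hs3st4 (43), which lie at the low end, near the middle and at the high end.

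Before the values of the 4 genes, the labels were checked. Ring1 was at 8.61 to 19.9 TPM in the 4 WT libraries and at 0.03 to 0.25 TPM in the 8 libraries of the PRC1 mice. Rnf2 was not reduced in the libraries labelled PRC1cKO: it was 86.2 and 93.1 TPM after Win18446, against 78.1 and 67.2 in PRC1ctrl, and 56.7 and 67.5 TPM at 2 mo, against 28.3 and 47.6. A gene's TPM does not separate transcripts with and without the floxed exons, and genotypes are named here as labelled. Germ cell markers were high in every library (summed TPM 963 to 1741 over 5 genes). The numbers of genes at 1 TPM or more ran from 12422 to 13986 at 2 mo, from 14796 to 15020 in WT, and were 16537 and 16599 in PRC1ctrl and 15098 and 15208 in PRC1cKO after Win18446. The table gives no read counts, so the number of reads behind a low TPM, and the smallest value that can be told from 0, are unknown.

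Lgi3 (ENSMUSG00000033595, chr14:70530685-70538324, plus strand, 3899 exonic bases) was at 2.97 and 3.18 TPM in the libraries labelled PRC1cKO after Win18446, the highest level of the 4 genes. In the matching PRC1ctrl libraries it was at 0.44 and 0.63 TPM. WT A_undiff gave 0.27 and 0.05 TPM and WT A_diff 0.22 and 0.94 TPM, the latter the highest of the 24 values that the rule needed to be under 1. At 2 mo it was at 0.02 and 0.01 TPM in PRC1ctrl and at 0.07 and 0.26 TPM in PRC1cKO. The lowest PRC1cKO value after Win18446 was thus 3.16 times the highest of the 6 libraries called silent. Below it, WT A_diff and Win18446 PRC1ctrl overlapped.

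Astn1 (ENSMUSG00000026587, chr1:158362273-158691781, plus strand, 9839 exonic bases) was at 2.53 and 3.04 TPM in PRC1cKO after Win18446 and at 0.30 and 0.59 TPM in PRC1ctrl. WT A_undiff gave 0.57 and 0.36 TPM and WT A_diff 0.80 and 0.65 TPM. Both 2 mo groups overlapped, with 0.16 and 0.47 TPM in PRC1ctrl and 0.64 and 0.36 TPM in PRC1cKO. Among the 6 libraries called silent, WT A_undiff and Win18446 PRC1ctrl overlapped, and WT A_diff lay above both, with a mean of 0.725 ± 0.106 TPM (SD, n = 2). The ratio of its means after Win18446, 6.26, was the largest of the 4 genes.

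Hs3st4 (ENSMUSG00000078591, chr7:123982869-124398989, plus strand, 3189 exonic bases) was at 2.43 and 2.84 TPM in PRC1cKO after Win18446. The PRC1ctrl libraries of that treatment, at 0.73 and 0.93 TPM, lay close under the threshold of 1. WT A_undiff gave 0.13 and 0.42 TPM and WT A_diff 0.81 and 0.50 TPM. At 2 mo it was at 0.12 and 0.04 TPM in PRC1ctrl and at 0.56 and 0.45 TPM in PRC1cKO, so the 2 labels stood apart there. Its ratio of means after Win18446, 3.17, was the smallest of the 4, and 4.08% of its exonic bases lay opposite exons of other genes.

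Slc7a10 (ENSMUSG00000030495, chr7:35186385-35201114, plus strand, 2111 exonic bases) was at 2.18 and 2.57 TPM in PRC1cKO after Win18446 and at 0.64 and 0.44 TPM in PRC1ctrl. WT A_undiff gave 0.04 and 0.40 TPM and WT A_diff 0.26 and 0.36 TPM, and these groups overlapped. At 2 mo it was listed at 0 in both PRC1ctrl libraries and at 0.02 and 0.27 TPM in PRC1cKO. Of its exonic bases, 17.9% lay opposite exons of Lrp3, a receptor of the LDL receptor family on the minus strand. Lrp3 was at 0.07 and 0.04 TPM in 2 mo PRC1ctrl and at 0.03 and 2.17 TPM in 2 mo PRC1cKO, high in the same single library as Slc7a10. The 2 mo kit is not stated to keep strand, so reads over the shared bases cannot be assigned there. After Win18446 Lrp3 overlapped between labels, with 6.12 and 8.69 TPM in PRC1ctrl and 7.24 and 9.38 TPM in PRC1cKO.

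**Figure D2:**
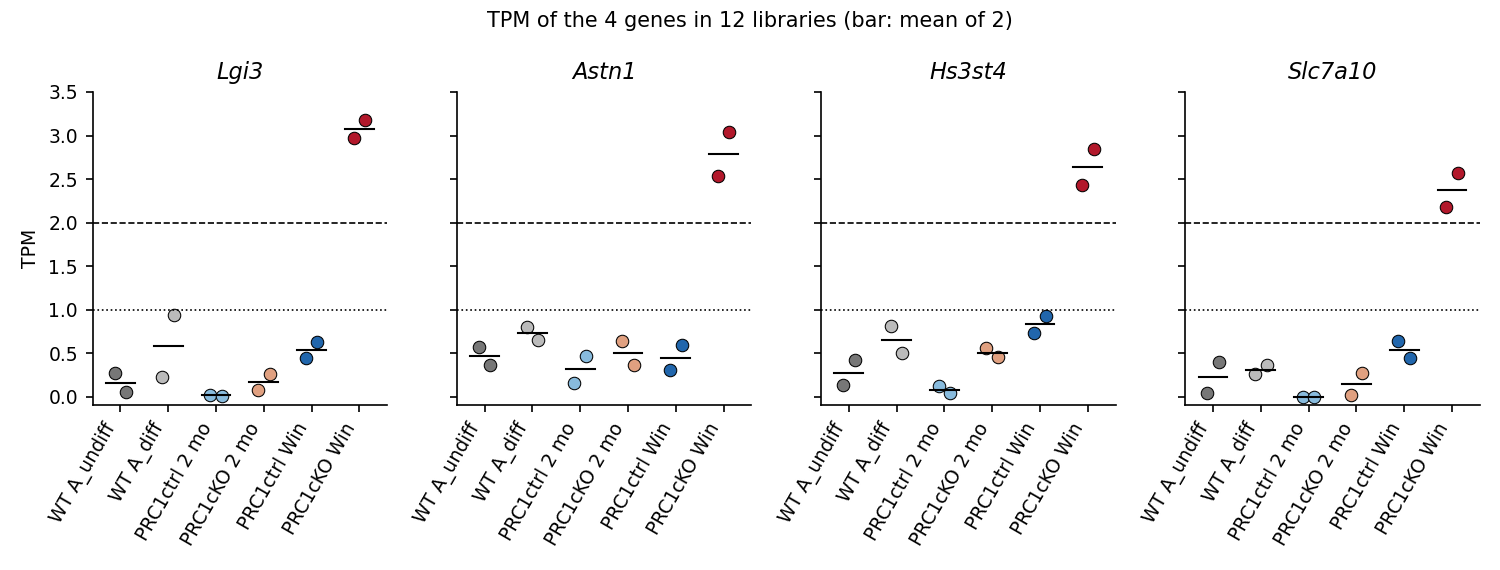
TPM (y axis) of Lgi3, Astn1, Hs3st4 and Slc7a10 in the 6 groups (x axis), 1 point a library and a bar at the mean of 2. The dotted line at 1 TPM and the dashed line at 2 TPM are the thresholds of the rule; the 8 points of PRC1cKO after Win18446 lie between 2.18 and 3.18, and the other 40 between 0 and 0.94.

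The ratios of means after Win18446 were 5.75 for Lgi3 and 4.40 for Slc7a10, between those of Astn1 and Hs3st4. These values chose the genes and are given with no test; in that treatment 14.5% of 32489 detected genes had both PRC1cKO libraries above both PRC1ctrl libraries. Of 8633 genes under 1 TPM in the 6 libraries and with names kept, 0.0463% met the rule. All 4 genes stayed low in absolute terms. In the PRC1cKO libraries after Win18446 between 12179 genes (for Lgi3) and 12883 genes (for Slc7a10) had a higher mean TPM, and the median over the 14492 genes at 1 TPM or more in both libraries was 15.8 TPM.

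Slc7a10 and Hs3st4 were nearest the upper threshold from inside, with the lower of their 2 PRC1cKO values at 2.18 and 2.43 TPM, followed by Astn1 at 2.53 TPM. Just outside were Acot5, an acyl-CoA thioesterase, at 1.86 and 1.98 TPM, Nectin4, an epithelial adhesion molecule, at 1.82 and 1.92 TPM, and Alx4, a homeobox factor of limb and skull development, at 1.83 and 1.68 TPM. Genes missed by the lower threshold alone were chosen after their values were seen. Sel1l3 (2.64 and 3.30 TPM in PRC1cKO) reached 1.01 TPM in 1 silent library. Tnfsf9, the ligand of the T cell receptor 4-1BB, reached 1.03 TPM in PRC1ctrl against 3.68 and 4.01 TPM in PRC1cKO. Defb29, a defensin, reached 1.04 TPM in WT A_diff against 2.21 and 3.81 TPM in PRC1cKO.

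When TPM were divided by median-of-ratios size factors, 14 genes met the rule, and 2 of the 4 (Lgi3 and Astn1) were among them. Slc7a10, at 1.74 and 1.95, and Hs3st4, at 1.94 and 2.15, then had at least 1 library under 2. On TPM, the rule gave 12 genes with either PRC1cKO library left out, and no gene when silent meant under 0.5 TPM or expressed meant at least 5 TPM.

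Some lists of markers of other cells moved with the label after Win18446, and their part in the result was not tested. Summed dendritic cell markers were at 57.5 to 66.7 TPM in PRC1ctrl and at 187 to 339 TPM in PRC1cKO, with 8 of 12 genes above, and those of all leukocytes at 42.4 to 43.4 against 46.6 to 60.8 TPM, with 7 of 9 above. Spermatid markers went the other way, at 129 to 141 against 24.0 to 25.9 TPM, with 7 of 8 below, as did markers of undifferentiated spermatogonia, at 1052 to 1131 against 851 to 951 TPM, with 5 of 10 below. Those of differentiating spermatogonia were at 559 to 560 against 611 to 658 TPM, with 5 of 8 above. Erythrocyte and platelet markers were at 13.6 to 15.5 against 4.37 to 5.09 TPM, with 7 of 10 below, and Leydig cell markers at 86.7 to 435 against 24.1 to 85.3 TPM, with 4 of 8 below. Germ cell markers were at 1606 to 1741 against 1487 to 1510 TPM, with 0 of 5 above and 3 below. Endothelial cell markers were at 19.7 to 22.9 against 15.1 to 15.6 TPM, with 1 of 7 above and 3 below. Of the spermatocyte markers 6 of 8 were below, although their sums overlapped. Sums also overlapped for macrophage markers, at 31.85 to 52.24 against 26.27 to 33.67 TPM, with 0 of 11 above and 2 below. For lymphocyte markers they did so too, at 12.91 to 15.01 against 14.16 to 16.29 TPM, with 2 of 11 above and 3 below. Of all these lists, Cd3g of the lymphocyte list was the one gene at 0 in all 12 libraries. In WT A_undiff dendritic cell markers summed to 163 to 262 TPM and those of all leukocytes to 50.0 to 53.3 TPM. In WT A_diff these lists summed to 69.8 to 104 and 17.2 to 18.8 TPM. The rule held the 4 genes under 1 TPM in WT, so these sums cannot be read against their levels there. In bulk samples, fewer cells of a type and less RNA per cell cannot be told apart.

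The 2 mo libraries were not used to choose the genes. None of the 4 reached 1 TPM there: all 16 values, PRC1cKO included, were lower, the highest being 0.64 TPM for Astn1. The level set by the rule was thus not met, but it was set on libraries of the other kit. How 1 TPM compares between the kits was not tested. Median-of-ratios size factors were 0.442 to 0.852 at 2 mo and 1.17 to 1.59 in the other 8 libraries. Lgi3, Hs3st4 and Slc7a10 had both PRC1cKO libraries above both PRC1ctrl libraries, and Astn1 did not. That is 3 of 4 genes, where it was 15.0% of the 4227 silent genes with kept names that were detected at 2 mo, and 21.1% of all 32181 detected genes. These sets were not matched to the 4 genes for level. With 2 libraries against 2, an exact two-sided permutation test of a single gene cannot go below p = 0.33. None of the 4 had at least 1 TPM in both PRC1cKO libraries and under 1 TPM in both PRC1ctrl libraries, a pattern of 0.946% of those silent genes.

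The separation at 2 mo was clearest for Hs3st4, whose lower PRC1cKO value of 0.45 TPM compares with a higher PRC1ctrl value of 0.12 TPM. For Lgi3 and Slc7a10 it came mostly from replicate 2. In limma on log2(TPM + 1), genes were tested where at least 2 of the 4 libraries had 1 TPM, and none of the 4 passed this filter. Of the 13953 genes that did, 31 (0.222%) were called higher in PRC1cKO and 270 (1.94%) lower. Without the filter, over 32181 genes, the log2 difference between PRC1cKO and PRC1ctrl was 0.48 ± 0.20 (SE) for Hs3st4 (limma adjusted p = 0.62). It was 0.19 ± 0.11 for Lgi3 and 0.19 ± 0.12 for Slc7a10 (both limma adjusted p = 0.65), and 0.19 ± 0.27 for Astn1 (limma adjusted p = 0.77). Without PRC1cKO replicate 2 the differences of Lgi3 and Slc7a10 were 0.08 and 0.03, and without PRC1cKO replicate 1 they were 0.31 and 0.34. Astn1 was at 0.02 without PRC1ctrl replicate 1, 0.36 without PRC1ctrl replicate 2, 0.06 without PRC1cKO replicate 1 and 0.33 without PRC1cKO replicate 2. In the fit to all 4 libraries without the filter none of the 4 was called, none had an unadjusted p under 0.05, and the median log2 difference over the 32181 genes was 0.04. No gene of the 32181 was called in that fit, while 2683 had an unadjusted p under 0.05. A pseudocount of 1 understates changes at these levels; with 0.1 the 4 differences were 1.78 for Hs3st4, 1.11 for Lgi3, 1.08 for Slc7a10 and 0.60 for Astn1, again with no adjusted p under 0.05.

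At 2 mo, marker lists differed between the labels as well, and their part in these values was not tested. Leydig cell markers summed to 1.39 to 1.41 TPM in PRC1ctrl and to 24.8 to 68.6 TPM in PRC1cKO, with 8 of 8 genes above. Dendritic cell markers summed to 15.5 to 161 against 199 to 1024 TPM, with 6 of 12 above. Of the macrophage markers 6 of 11 were above and 2 below, and of those of all leukocytes 5 of 9 were above and 0 below. Of the lymphocyte markers 2 of 11 were above and 2 below. Spermatid markers summed to 761 to 1764 against 58.8 to 64.8 TPM, with 7 of 8 below. Markers of undifferentiated spermatogonia were at 1118 to 1533 against 729 to 815 TPM (4 of 10 below) and those of differentiating spermatogonia at 275 to 392 against 598 to 813 TPM (5 of 8 above). Germ cell markers were at 963 to 1175 against 1342 to 1467 TPM (2 of 5 above, 0 below). Spermatocyte markers were at 635 to 772 against 775 to 826 TPM (3 of 8 above, 3 below). Those of peritubular myoid cells were at 5.73 to 13.65 against 1.47 to 4.49 TPM (1 of 6 above, 1 below).

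The relatives and partners of the 4 genes are a list of 29 genes drawn up once the 4 were known. Of these, 10 were also under 1 TPM in the 6 silent libraries, and none of the 10 reached 1 TPM in a PRC1cKO library after Win18446, which 2.06% of the 8633 silent genes with kept names did. Astn2, the other astrotactin, was at 0.35 and 0.22 TPM in PRC1ctrl and at 0.30 and 0.41 TPM in PRC1cKO. Lgi4 was at 0.67 and 0.29 TPM against 0.28 and 0.34 TPM, and Lgi1 at 1.79 and 1.66 TPM against 1.38 and 1.67 TPM, both overlapping between labels. Lgi2 was nearest to Lgi3, at 1.60 and 1.66 TPM against 2.28 and 2.32 TPM, and at 2 mo at 0.06 and 0.17 TPM against 0.24 and 0.29 TPM.

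Of the genes related to LGI receptors, Adam22 was at 33.5 and 30.0 TPM in PRC1ctrl after Win18446 and at 26.2 and 32.8 TPM in PRC1cKO. Adam23 was at 24.2 and 24.0 TPM against 14.5 and 18.9 TPM, so its labels stood apart in the direction opposite to Lgi3, whereas at 2 mo it was at 2.29 and 1.99 TPM in PRC1ctrl and at 3.07 and 4.62 TPM in PRC1cKO. Adam11 went with Lgi3, at 1.26 and 1.54 TPM against 2.05 and 2.13 TPM after Win18446 and at 0.05 and 0.01 TPM against 0.06 and 0.23 TPM at 2 mo, where it did not pass the filter. Neither of the other two was called at 2 mo (limma adjusted p = 0.72 for Adam22 and 0.58 for Adam23).

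Among the 3-O-sulfotransferases, Hs3st2, Hs3st3a1 and Hs3st5 had at most 0.35 TPM in any library. That Hs3st4 alone of the 7 met both thresholds restates the rule, which took every gene with a kept name that did so. Hs3st6 was expressed in all WT libraries (4.05 to 16.8 TPM) and was at 1.88 and 2.64 TPM in PRC1ctrl and 4.01 and 4.23 TPM in PRC1cKO after Win18446. Hs3st1 overlapped between those labels, at 3.34 and 3.23 TPM against 3.12 and 2.55 TPM. Hs3st1 and Hs3st6 were thus over 1 TPM in the PRC1ctrl libraries after Win18446, where the rule needed Hs3st4 to be under 1 TPM.

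SLC7A10 works at the cell surface as a pair with the heavy chain SLC3A2. Slc3a2 was at 263 and 223 TPM in PRC1ctrl and at 226 and 254 TPM in PRC1cKO after Win18446, and overlapped at 2 mo too (24.0 and 73.7 against 36.7 and 107 TPM; limma adjusted p = 0.76). Slc7a5, another light chain of Slc3a2, was at 230 to 313 TPM in the WT libraries, where the rule needed Slc7a10 to be under 1 TPM. Slc7a9, the light chain of the cystine transporter, stood apart in the opposite direction, at 3.21 and 4.09 TPM in PRC1ctrl and 1.73 and 1.35 TPM in PRC1cKO after Win18446, and at 1.05 and 0.49 against 0.04 and 0.06 TPM at 2 mo. No relative or partner was among the genes called at 2 mo, where 10 of the 33 genes of these families passed the filter.

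The 4 genes lie at 4 separate loci, with Hs3st4 and Slc7a10 far apart on chromosome 7. Of the 17 nearest protein-coding genes (1 overlapping, and the nearest 2 on each side of each gene), 6 had both PRC1cKO libraries above both PRC1ctrl libraries after Win18446 and 6 had the reverse, where 14.5% and 40.4% of the 32489 detected genes did. All 4 neighbours of Lgi3 were among the 6 above. Bmp1, a protease of the extracellular matrix 10450 bases before Lgi3, was at 2.27 and 3.75 TPM in PRC1ctrl and at 4.41 and 4.58 TPM in PRC1cKO. Reep4, 6926 bases after it, was at 30.5 and 35.5 TPM against 40.2 and 47.4 TPM. Hr, the hairless corepressor 13887 bases after it, was at 3.62 and 5.20 TPM against 10.1 and 12.3 TPM.

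Sftpc, the gene of lung surfactant protein C, lies on the minus strand with its 5′ end facing Lgi3, 6603 bases away. After Win18446 it was at 0 and 0.73 TPM in PRC1ctrl and at 1.06 and 0.86 TPM in PRC1cKO. At 2 mo it was at 0 and 0.05 TPM in PRC1ctrl and at 2.83 and 2.14 TPM in PRC1cKO, a log2 difference of 1.76 ± 0.31 (SE) that was not called (limma adjusted p = 0.066). Lgi3 itself was at 0.26 TPM or less in those 4 libraries. All 4 neighbours of Lgi3 had both PRC1cKO libraries above both PRC1ctrl libraries at 2 mo as well, a pattern of 21.1% of the detected genes, and no test was made of the locus.

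Astn1 has Brinp2, a neuronal gene, 5946 bases before it, at 0.46 and 0.26 TPM in PRC1ctrl and 0.83 and 0.92 TPM in PRC1cKO after Win18446. Pappa2, 19945 bases after Astn1, overlapped between the labels at 0.25 TPM or less. Hs3st4 stands alone, with Zkscan2 as its nearest protein-coding gene 482419 bases away. Zkscan2 went against it, at 12.4 and 12.8 TPM in PRC1ctrl and 3.72 and 4.46 TPM in PRC1cKO. Around Slc7a10, Cebpa, a factor of fat and myeloid cells 64456 bases before it, was at 17.8 and 19.4 TPM against 15.5 and 14.7 TPM. No neighbour was called at 2 mo among the 9 of 17 that passed the filter.

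**Figure D3:**
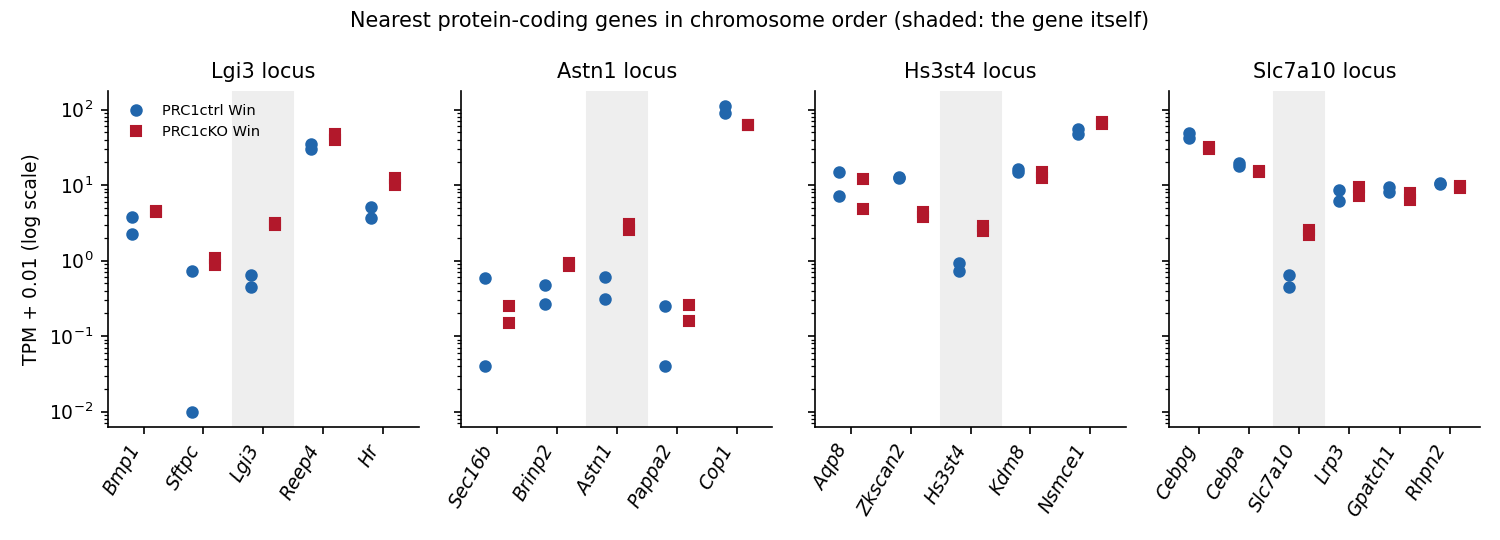
TPM + 0.01 (log scale, y axis) of Lgi3, Astn1, Hs3st4 and Slc7a10 (shaded) and their nearest protein-coding genes in chromosome order (x axis) in the 4 libraries after Win18446; circles are PRC1ctrl and squares PRC1cKO, 1 a library. The squares lie above the circles for all 5 genes at the Lgi3 locus, while Cebpg, Cebpa, Gpatch1 and Rhpn2 at the Slc7a10 locus have theirs below.

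Lowering the upper threshold from 2 to 1 TPM, a choice made after seeing the data, gave 65 genes with kept names, the 4 included. Of these, 30 (46.2%) had both PRC1cKO libraries above both PRC1ctrl libraries at 2 mo, and 3 the reverse. Of the 4058 genes detected at 2 mo, silent in the 6 libraries and under 1 TPM in each PRC1cKO library after Win18446, 14.2% had PRC1cKO above and 15.4% the reverse. These sets were not matched for level, and ties counted as not above. The median of the mean TPM at 2 mo was 0.125 in PRC1ctrl and 0.36 in PRC1cKO for the 65, and 0.045 under each label for the 4058. Leaving out PRC1cKO replicate 1 of 2 mo gave 48 of 65, against 34.7% of the 4058. The on and off pattern at 1 TPM was met at 2 mo by 6 of the 65, which did not include Lgi3, Astn1, Hs3st4 or Slc7a10, and by 0.665% of the 4058. These were Ldb2, Hoxa11os, Cldn18, Soga3, Cxcl14 (a chemokine, 0.46 and 0.06 against 1.29 and 1.81 TPM) and Myh2 (a muscle myosin, 0.27 and 0.23 against 1.09 and 1.68 TPM). None of the 65 was called at 2 mo, where 12 passed the filter.

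**Figure D4:**
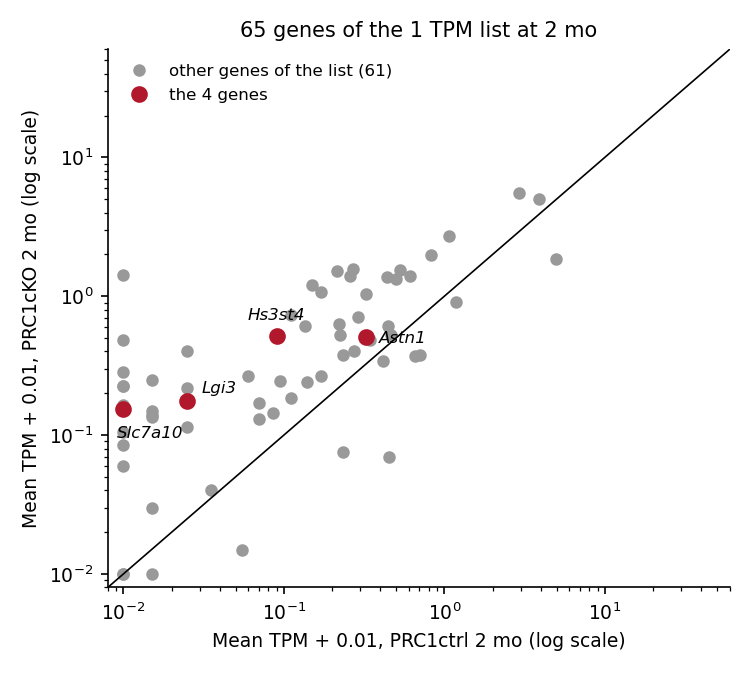
Mean TPM + 0.01 at 2 mo in PRC1ctrl (x axis) and PRC1cKO (y axis), both on log scales, for the 65 genes with at least 1 TPM in both PRC1cKO libraries after Win18446; each point is a gene and the line marks equal levels. Hs3st4, Lgi3, Slc7a10 and, by a smaller distance, Astn1 lie above the line; Slc7a10 is at 0 TPM in PRC1ctrl.

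Of the 4 genes, Slc7a10 alone was on a functional list. Over all 8633 silent genes with kept names, 0.753% reached 1 TPM in both PRC1cKO libraries after Win18446, so a count of 0 in a short list says little. Of 382 solute carriers, 121 were silent in the 6 libraries and 2 of these, Slc7a10 and Slc9a3, the sodium and proton exchanger of epithelia, reached 1 TPM in both PRC1cKO libraries. None of 74 silent neurotransmitter receptor genes did so, none of 44 silent neuropeptide and hormone genes and none of 28 silent basic helix-loop-helix factors. Transcription factors outside the dropped families that did so were Alx4 (1 of 36 silent homeobox factors) and Foxe3 and Foxd2 (2 of 17 silent forkhead factors). Others were Sox17 and Sall2 (2 of 18 silent SOX, ZIC and other zinc finger factors), and Pou2f3, Vgll1 and Fev (3 of 16 other silent factors). Of 5 silent dendritic cell markers, Cd207, the langerin of Langerhans cells, did so at 5.44 and 1.02 TPM. In all, 13 functional lists held 20 genes that reached 1 TPM. Of all 65 genes that did so, 46.2% had both PRC1cKO libraries above both PRC1ctrl libraries at 2 mo, and 10 of the 20 had this pattern. These were Slc7a10, Alx4, Vgll1, Wnt10a (a WNT ligand), Cxcl14, Cldn18, Thbs2 (a matrix thrombospondin), Myh2, Tmprss2 and Cpa1 (a pancreatic carboxypeptidase).

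The 6 rows dropped by name comprised 2 processed pseudogenes, 2 rows annotated as miRNA, 1 lncRNA and 1 unclassified transcript. The pseudogene Gm16441 was at 3.08 and 2.86 TPM in PRC1cKO after Win18446 and, at 2 mo, at 0.07 and 0 TPM in PRC1ctrl against 1.60 and 5.71 TPM in PRC1cKO (log2 difference 2.01 ± 0.52 SE, limma adjusted p = 0.15). Gm6038, also a pseudogene, was at 5.79 and 5.17 TPM after Win18446, and at 2 mo at 0 and 0.75 TPM against 2.11 and 4.78 TPM (1.68 ± 0.50, limma adjusted p = 0.20). Unlike the 4 genes, both had at least 1 TPM in both PRC1cKO libraries at 2 mo. Pseudogenes share sequence with their parent genes, so the reads given to them are uncertain. Gm47308, a short row annotated as miRNA, was at 142 and 78.9 TPM after Win18446 and at 31.4 and 0 TPM in 2 mo PRC1cKO, against 31.0 and 25.6 TPM in 2 mo PRC1ctrl.

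The rule was also turned around. Genes under 1 TPM in WT and in PRC1cKO but at 2 TPM or more in both PRC1ctrl libraries after Win18446 numbered 30 with kept names, against the 4. At 1 TPM the numbers were 164 and 65, and at 5 TPM 1 and 0. At 2 mo the same rule gave 18 genes on in PRC1cKO alone, none of them among the 4, and 51 on in PRC1ctrl alone. At each threshold, then, fewer genes met the rule under PRC1cKO than under PRC1ctrl. In the 4 treated libraries 40.4% of detected genes had both PRC1ctrl libraries above both PRC1cKO libraries, and the number of genes at 1 TPM or more moved with the label in the same direction, as given above. Their part in these counts was not tested.

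**Figure D5:**
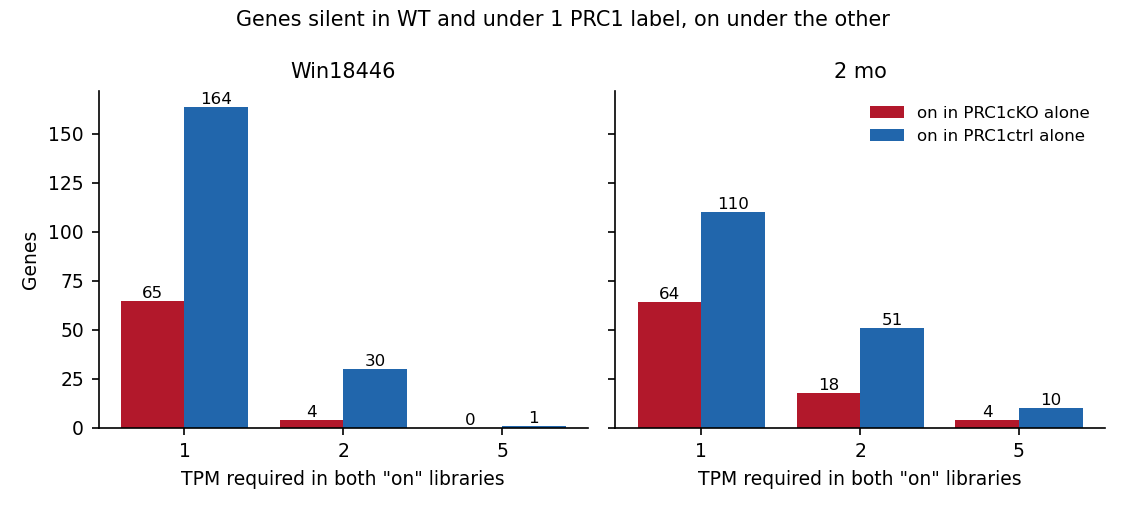
Number of genes with kept names (y axis) under 1 TPM in WT and in both libraries of one PRC1 label and at or above 1, 2 or 5 TPM (x axis) in both libraries of the other, after Win18446 (left) and at 2 mo (right). Red bars are genes on in PRC1cKO alone (4 at 2 TPM after Win18446) and blue bars genes on in PRC1ctrl alone (30).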

How the data were processed

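The 12 libraries (6 groups of 2) were taken from 1 table of TPM that the authors deposited, made with RSEM 1.3.3; the submitters' processing notes also name Trim Galore 0.6.6, HISAT2 2.2.1 and the build GRCm38. Because TPM are relative within a library, gains of some genes reduce the rest, and depth is unknown. Groups came from the sample labels. By the study's methods, the 2 libraries of a group were independent biological replicates, each from cells pooled over mice. The genes, lists and tests were chosen with earlier results of these data known.

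The TPM thresholds were applied to 55385 genes (numpy 2.4.6 and pandas 2.3.3 in Python 3.11.15). For 2 mo, log2(TPM + 1) was tested with limma 3.58.1 in R 4.3.3 (trend and robust options, two-sided, at least 1 TPM in at least 2 of 4 libraries). A call needed an adjusted p (Benjamini-Hochberg) under 0.05 and a change of over 1 on the log2 scale. The treated and WT libraries were not tested, since they chose the genes. The authors' own tests used read counts, which were not used here. Named were all 4 genes, the 3 nearest non-members at the upper threshold, members of functional lists, Rnf2 and Ring1; relatives, neighbours, genes missed at the lower threshold and other named genes were chosen after the 4 were known. Coordinates and exons followed gencode vM21. Figures were drawn with matplotlib 3.10.9.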

Additional observations from a re-analysis of the deposited data

How the results depend on the processing

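The choice of genes depended on its thresholds. Against 4 genes as reported, at least 5 TPM or silence under 0.5 TPM left 0, median-of-ratios scaling gave 14, leaving out a PRC1cKO library after Win18446 gave 12 in either case, and at least 1 TPM, added after seeing the data, gave 65. Of the genes so chosen, those with PRC1cKO above PRC1ctrl at 2 mo were 3 as reported, and 0, 0 and 9 under the first 3 settings. They were 4 to 6 with a PRC1cKO library after Win18446 left out, and 30 at 1 TPM. Those on at 2 mo were 0 as reported, 1 after scaling, 1 to 2 without a library and 6 at 1 TPM. Of the 65, 30 were above at 2 mo, and 35 to 48 with a 2 mo library left out. Of the 4 genes, 3 to 4 were above with a 2 mo library left out (both added after seeing the data). The cause was not tested.

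Genes called at 2 mo were 31 higher and 270 lower. They were 406 lower with a pseudocount of 0.1, 0 and 0 without a filter, 6 and 90 at a mean of at least 5 TPM, 86 and 943 after scaling, 662 and 1049 over 12 libraries, and 1 to 124 and 44 to 149 with a library left out (124 and 44 without PRC1ctrl replicate 2, 31 and 47 without PRC1ctrl replicate 1, 1 and 149 without PRC1cKO replicate 1, 7 and 131 without PRC1cKO replicate 2; the lone library was assumed to vary like the others). With the replicate number as a block they were 1074 and 1098. By the labels, such libraries share nothing but the number. Their deviations from the group means were nonetheless correlated (0.38 over 13953 genes). Genes at 1 TPM or more were 12422 (PRC1ctrl) and 12451 (PRC1cKO) in replicate 1, and 13986 and 13826 in replicate 2. The fit reported above had no term for this shared part, whose source was not tested. Scaling moved the median log2 difference of tested genes from 0.22 to -0.09. None of the 4 genes was called in any of these fits, and each kept a positive difference. Their differences always came from the fit without the filter, so a mean of at least 5 TPM gave none. The lowest adjusted p in any limma fit was 0.15 for Slc7a10 and Lgi3, 0.18 for Hs3st4 and 0.56 for Astn1. With 2 libraries a group and no depth, differences at 0 to 0.64 TPM could not be resolved.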

Other observations

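The 30 genes on in the libraries labelled PRC1ctrl alone after Win18446 comprised 21 protein-coding genes, 5 of them olfactory receptors. At 2 mo, 10 of the 30 had both PRC1cKO libraries above both PRC1ctrl libraries and 4 the reverse. Of the 32181 detected genes, 21.1% and 14.6% had these patterns. Of the 164 genes on in PRC1ctrl alone at 1 TPM after Win18446, 27 had the first and 27 the reverse. Of the 18 genes on in PRC1cKO alone at 2 mo, Hsd3b1, a steroid-making enzyme on the Leydig cell list, was at 8.74 and 6.63 TPM there and at 17.2 and 1.83 TPM in PRC1ctrl after Win18446. Tnfsf9, which missed the lower threshold by 1 library, was at 0.54 and 1.10 TPM in PRC1ctrl and at 5.32 and 9.11 TPM in PRC1cKO at 2 mo, a log2 difference of 2.15 ± 0.46 (SE) that was not called (limma adjusted p = 0.096). Its Win18446 values placed it near the threshold, as theirs chose Lgi3, Hs3st4 and Slc7a10. That these genes were above in PRC1cKO in both settings is thus no independent agreement. These genes were picked out after their values were seen.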
